A study of Mus musculus with 2 samples.

Results

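The genes described here encode the GFI1-type repressors and the LSD1-CoREST complex that they recruit. They are the zinc-finger repressors Gfi1b and Gfi1, the histone demethylase Kdm1a (LSD1), the CoREST scaffolds Rcor1, Rcor2 and Rcor3, and the histone deacetylases Hdac1 and Hdac2. They were matched by the symbol of the Ensembl gene identifier, and all 8 were found among the 43346 mouse genes listed, with 49 transcripts in the transcript tables. Their values did not enter the rule that chose them, but they were chosen with earlier results of these data known.

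GFI1 and GFI1B bind DNA through C-terminal zinc fingers and carry a short N-terminal SNAG domain that docks into the catalytic pocket of LSD1. LSD1 removes methyl groups from lysine 4 of histone H3, a CoREST protein holds it on nucleosomes, and HDAC1 or HDAC2 removes acetyl groups in the same complex. In blood formation GFI1B acts in the erythroid and megakaryocytic branches and GFI1 in granulocytic and lymphoid cells, and each represses its own gene and that of the other.

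The RNA came from G1E-ER4, an immortalized male mouse line derived from embryonic stem cells in which Gata1 was disrupted, and carrying GATA1 fused to an estrogen receptor domain that binds the ligand. Both libraries come from cells given 17beta-estradiol, the ligand that activates the fusion, at 10 nM for 3 h, and polyadenylated RNA was sequenced in read pairs. The 2 libraries form 1 group, biological replicates 1 and 2, and, since the labels name a shared cell sample record for them, their spread may be technical. Estradiol, the disrupted Gata1 and the fusion are shared by both, the cells are of 1 line, and no untreated library was analysed here, so no value below is an effect of estradiol.

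Replicate 1 held 31126956 expected counts and replicate 2 held 57853617. Expected counts are the authors' estimated numbers of fragments, and levels are given in TPM, which corrects abundance for the length of the transcript and for depth. All 8 erythroid markers reached 1 TPM in both libraries, and their summed level was 2048 TPM in replicate 1 and 17302 TPM in replicate 2. The shift lay mainly in the globins: Hbb-bs had 863 TPM in replicate 1 and 9484 TPM in replicate 2, Hba-a1 had 149 and 6606 TPM in the same order, and reads may be divided among near-identical globin copies. Granulocyte and monocyte markers had sums of 2.66 and 0.420 TPM in replicates 1 and 2, with 0 of 8 at 1 TPM in both libraries and Lyz2 at 0, and lymphocyte markers summed to 1.12 and 2.45 TPM, with 0 of 8 at 1 TPM in both and Cd3e, Il7r and Cd8a at 0. Of 6 megakaryocyte markers 2 reached 1 TPM in both libraries, with a sum of 30.1 TPM in replicate 1 and 83.2 TPM in replicate 2 and with Ppbp at 0. Of 5 stem cell markers 0 did so, with sums of 0.190 and 0.940 TPM and with Ly6a and Hlf at 0. In bulk RNA, fewer cells of a type and less RNA per cell cannot be told apart.

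The repressor RNA abundant in these cells was that of Gfi1b, and Gfi1 lay near the detection limit. Gfi1b (ENSMUSG00000026815.10, chr2:28609450-28621982, minus strand, GRCm38) had 186 TPM in replicate 1 and 370 in replicate 2, with a mean of 278 ± 130 TPM (SD, n = 2). It was the most abundant of the 8 genes in each library and stood at percentile 89.8 in replicate 1 and 95.9 in replicate 2 of the 8777 genes that reached 1 TPM in both. Gfi1 (ENSMUSG00000029275.13, chr5:107716657-107726036, minus strand) had 1.01 TPM in replicate 1 and 0.230 TPM in replicate 2, from 21 and 17 counts. The authors' intervals for Gfi1 ran from 0.475 to 1.58 TPM in replicate 1 and from 0.141 to 0.466 TPM in replicate 2, so they narrowly excluded each other. Gfi1 was therefore 0.540% of the summed Gfi1b and Gfi1 level in replicate 1 and 0.0620% in replicate 2. On log2(TPM + 1), the Gfi1b level exceeded that of Gfi1 by 6.54 in replicate 1 and 8.24 in replicate 2 (mean 7.39 ± 1.20, SD, n = 2). The Gfi1 transcripts were not resolved at this depth, since none had more than 10.4 counts. Gfi1-204, a partial coding model, held 75.4% of the gene's TPM in replicate 1 and 35.5% in replicate 2, a 1482-base transcript that M21 lacks held 16.6 and 38.4%, and Gfi1-201, with 423 codons, held 0 and 26.1%. The effective length of Gfi1 was 840 bases in replicate 1 and 1408 bases in replicate 2, and its TPM, shares and ratios depend on that length. Its fold between libraries was 4.39 in TPM and 1.91 in counts scaled for depth.

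The SNAG domain lies at the N terminus of both proteins. The first 60 coding bases, which hold it, are shown because they carry the contact with LSD1 that both repressors share. They come from the GENCODE M21 models Gfi1b-204 and Gfi1-201 on GRCm38, 5′ to 3′, with capitals at the 15 positions that differ.
Gfi1b coding start: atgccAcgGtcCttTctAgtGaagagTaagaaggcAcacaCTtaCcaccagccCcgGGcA
Gfi1 coding start: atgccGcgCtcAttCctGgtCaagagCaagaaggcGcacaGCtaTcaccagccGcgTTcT
The other 45 positions were identical. Over the aligned coding sequences as a whole identity was 60.9%, with a longest identical run of 27 bases, and no other gene shared a 50-base window with a Gfi1b transcript. The genes of this repressor pair thus shared no window of that length.

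Gfi1b RNA was assigned almost wholly to a model with an in-frame extension. Gfi1b-204, with 363 codons, held 92.4% of the gene's TPM in replicate 1 and 93.8% in replicate 2 (mean 93.1 ± 1.04%, SD, n = 2), from 7184 and 30428 counts. Gfi1b-201, with 330 codons, held 7.63% in replicate 1 and 6.16% in replicate 2. The order of these models was the same in both libraries, although the gene's level differed. Besides small differences at the transcript ends, the models differ by 99 bases at the 5′ end of exon 6 (chr2:28611585-28611683, minus strand, GRCm38), which add 33 codons after coding base 648 and leave the rest of the coding sequence identical. The extension is shown because the longer model carried most of the RNA.
Gfi1b exon 6 extension: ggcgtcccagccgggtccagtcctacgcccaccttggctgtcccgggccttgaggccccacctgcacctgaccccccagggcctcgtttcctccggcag

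**Figure D1:**
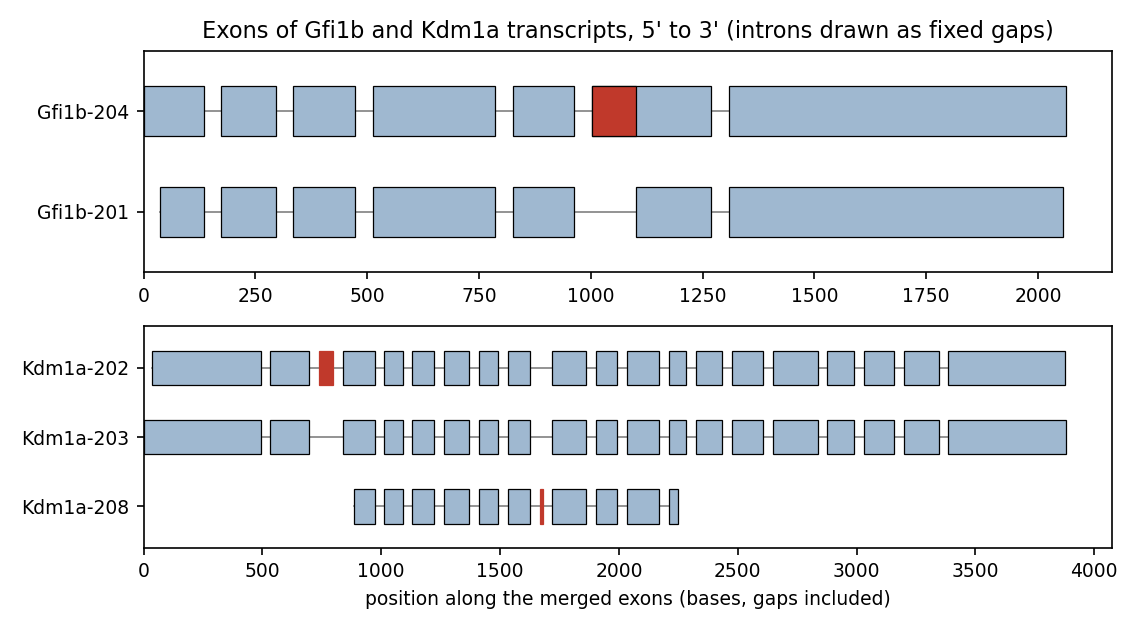
Exons of the Gfi1b and Kdm1a models, 5′ to 3′, along the merged exons in bases, with each intron drawn as a gap of fixed width. Red marks the 99-base extension of Gfi1b-204, the 60-base exon of Kdm1a-202 that Kdm1a-203 lacks, and the 12-base exon of Kdm1a-208, a partial model.

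The Gfi1b promoter is known to be bound by GATA1 and by GFI1B itself. Its sequence is shown because Gfi1b was the highest of the 8 genes. Whether GATA1 had a part in that level was not tested. The window from 250 bases before to 50 after the start site was taken from RefSeq on GRCm38.p6 (chr2:28621933-28622232, minus strand). Capitals mark a GATA word, whose first base is at -120 from the start site, and a GFI word, at -34.
Gfi1b promoter: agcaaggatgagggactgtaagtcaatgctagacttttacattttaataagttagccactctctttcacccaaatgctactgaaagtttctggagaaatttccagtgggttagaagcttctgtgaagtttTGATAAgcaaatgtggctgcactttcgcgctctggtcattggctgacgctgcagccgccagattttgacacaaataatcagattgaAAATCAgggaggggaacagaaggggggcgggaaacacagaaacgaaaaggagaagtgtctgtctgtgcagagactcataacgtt
The GATA words searched were GATAA or GATAG preceded by A or T, the GFI word was AAATCA, both strands were read, and the words do not overlap here. Of 32851 windows of 300 bases, 29.8% held a GATA word, 14.0% the GFI word and 5.79% both. RefSeq gave 8 windows for 7 of the 8 genes, with Hdac1 not matched, and 1 of these windows, that of Gfi1b, held either word. A match describes letters in a window and is not evidence of binding.

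Kdm1a encodes LSD1, the catalytic subunit that the SNAG domain reaches. Kdm1a (ENSMUSG00000036940.11, chr4:136550540-136602723, minus strand) had 88.0 TPM in replicate 1 and 30.3 in replicate 2, with a mean of 59.2 ± 40.8 TPM (SD, n = 2). The gene was thus well detected in both libraries and lower in replicate 2, opposite to Gfi1b. Gfi1b over Kdm1a was a TPM ratio of 2.11 in replicate 1 and 12.2 in replicate 2. Gfi1b RNA thus exceeded Kdm1a RNA in each library by amounts that differed widely, and protein was not measured here. Kdm1b, the related LSD2 demethylase, which does not bind CoREST, had 3.29 TPM in replicate 1 and 2.82 TPM in replicate 2. The log2(TPM + 1) difference of Kdm1a over Kdm1b was 4.38 in replicate 1 and 3.04 in replicate 2 (mean 3.71 ± 0.95, SD, n = 2), with Kdm1a higher in both.

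Kdm1a is spliced with an optional exon near its 5′ end and with a 12-base microexon that is known from neurons, where its 4 codons alter how LSD1 works. Kdm1a-202, with 873 codons, held 72.1% of the gene's TPM in replicate 1 and 76.0% in replicate 2, a level of 63.5 and 23.1 TPM. Kdm1a-203, with 853 codons, held 27.3% in replicate 1 and 18.8% in replicate 2, a level of 24.0 and 5.71 TPM. Both models were present in each library and Kdm1a-202 led in each. They differ in the coding sequence by a 60-base exon, exon 3 of Kdm1a-202 (chr4:136582040-136582099, minus strand, GRCm38). The microexon (chr4:136563438-136563449, minus strand) belongs to Kdm1a-208, which had 0 counts in both libraries, and a count of 0 allows up to 3 counts. Both exons are shown because the first divides the models that carried counts and the second marks the neuronal form, with capitals at its 12 bases and 9 flanking exonic bases of Kdm1a-208 on each side.
Kdm1a exon 3: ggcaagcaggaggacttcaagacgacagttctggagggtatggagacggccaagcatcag
Kdm1a microexon: ggacaagctGACACTGTCAAGgttccaaaa
Srrm4, the splicing factor that promotes neuronal microexons, had no count, and Nova1, another neuronal splicing factor, had 1.64 TPM in each library. Nova1 was the only 1 of 6 neuronal markers at 1 TPM in both, and the list had sums of 1.77 and 1.93 TPM in replicates 1 and 2, with Rbfox3, Snap25 and Srrm4 at 0.

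All 3 CoREST genes were expressed, and Rcor1 was the highest in each library. Rcor1 (ENSMUSG00000037896.13, chr12:111039351-111115901, plus strand), the scaffold first purified with LSD1 and HDAC1/2, had 89.2 TPM in replicate 1 and 41.3 TPM in replicate 2 (mean 65.3 ± 33.9, SD, n = 2). Rcor2 (ENSMUSG00000024968.9, chr19:7267325-7275225, plus strand), known from stem cells and brain, had 22.5 TPM in replicate 1 and 13.5 TPM in replicate 2 (mean 18.0 ± 6.37, SD, n = 2). Rcor3 (ENSMUSG00000037395.11, chr1:192098546-192138062, minus strand), reported to oppose Rcor1 in blood cells, had 28.3 TPM in replicate 1 and 16.9 TPM in replicate 2 (mean 22.6 ± 8.00, SD, n = 2). Each was higher in replicate 1 on this scale. Rcor1 made up 63.7% of the summed CoREST level in replicate 1 and 57.6% in replicate 2, Rcor3 20.2 and 23.6%, and Rcor2 16.1 and 18.8%. These shares moved less than the levels. On log2(TPM + 1), Rcor1 exceeded Rcor2 by 1.94 in replicate 1 and 1.55 in replicate 2 (mean 1.74 ± 0.28, SD, n = 2) and Rcor3 by 1.62 and 1.24 (mean 1.43 ± 0.27). The summed CoREST level was 140 TPM in replicate 1 and 71.8 TPM in replicate 2, which over Kdm1a gave ratios of 1.59 and 2.37, so CoREST RNA exceeded Kdm1a RNA in each library.

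The CoREST genes differed in how clearly their transcripts were resolved. Rcor1-201, with 480 codons, held 66.5% of the gene's TPM in replicate 1 and 67.3% in replicate 2, and Rcor1-202, with 382 codons, held 33.5 and 32.7%. Rcor2-202, with 479 codons, held 49.0% in replicate 1 and 61.9% in replicate 2, and Rcor2-201, with 523 codons, held 43.0 and 38.1%. Rcor1-201 thus led in each library. The lead of Rcor2-202 was not resolved in replicate 1, where the authors' intervals of the Rcor2 models overlapped (9.22 to 12.2 TPM and 8.26 to 10.5 TPM) and Rcor2-201 had more counts, 639 beside 513. Rcor3 was spread over 10 models with counts, and its leading model changed: Rcor3-209, a processed transcript of 479 bases with no coding sequence, held 35.1% in replicate 1, with an authors' interval of 5.67 to 14.1 TPM that overlaps that of Rcor3-208 (4.04 to 8.15 TPM), and 0% in replicate 2. Rcor3-207, with 551 codons, held 19.0% in replicate 1 and 55.2% in replicate 2, and it had the most counts in both, 228 and 830. Rcor3-208, a partial coding model of 345 bases, held 21.2 and 7.63% in the same order, Rcor3-205, a nonsense-mediated decay model, 0 and 13.9%, and Rcor3-212, a processed transcript, 11.5 and 13.1%. Processed transcripts and retained introns, which have no coding sequence, held 54.7% of Rcor3 TPM in replicate 1 and 17.6% in replicate 2. Short models took much of it in replicate 1, and the gene's effective length was 1001 bases there and 1376 bases in replicate 2, a length on which its TPM depends. The antisense genes Gm26879 and Gm10516, which overlap Rcor3, had 0 counts. At least 1 window of 50 bases was shared between Rcor3 transcripts and 621 other genes, 2 of which shared 100 or more.

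**Figure D2:**
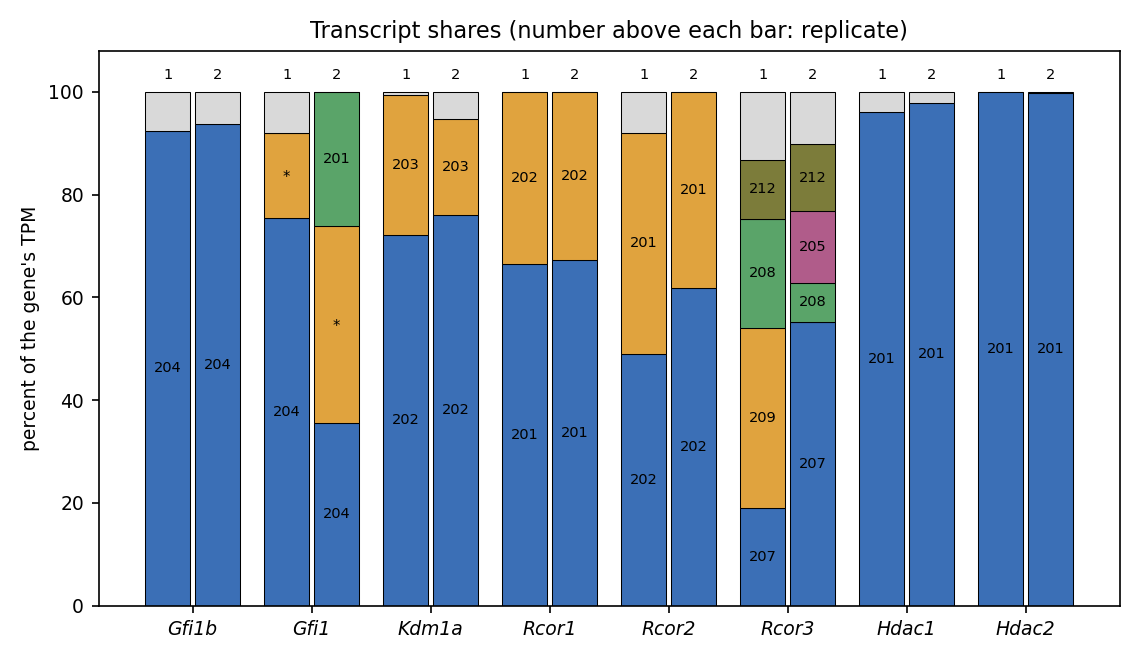
Percent of each gene's TPM on its transcripts, with replicate 1 left and replicate 2 right in each pair of bars. Numbers inside are the transcript name endings, grey gathers transcripts under 10% in both libraries, and the asterisk is a Gfi1 transcript that GENCODE M21 lacks. Gfi1b, Kdm1a, Rcor1, Hdac1 and Hdac2 keep their leading transcript by TPM, as does Rcor2, whereas Gfi1 and Rcor3 change their leading transcript.

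The deacetylase pair changed order between the libraries. Hdac1 (ENSMUSG00000028800.11, chr4:129516104-129542713, minus strand) had 34.9 TPM in replicate 1 and 69.9 TPM in replicate 2 (mean 52.4 ± 24.7, SD, n = 2). Hdac2 (ENSMUSG00000019777.12, chr10:36974544-37001889, plus strand) had 101 TPM in replicate 1 and 35.0 in replicate 2 (mean 67.9 ± 46.4, SD, n = 2). Hdac2 was thus 74.3% of their sum in replicate 1 and 33.4% in replicate 2. The log2(TPM + 1) difference of Hdac1 over Hdac2 was -1.50 in replicate 1 and 0.97 in replicate 2, and its mean of -0.26 ± 1.75 (SD, n = 2) gives no order. Their sum was 136 TPM in replicate 1 and 105 in replicate 2, a smaller relative difference. Hdac1-201, with 482 codons, held 96.0% of Hdac1 TPM in replicate 1 and 97.8% in replicate 2, and Hdac2-201, with 488 codons, held a mean of 99.9% of Hdac2 TPM. Each gene was thus assigned nearly to a lone model in both libraries.

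Hdac1 has a processed pseudogene, Gm10093 (chr17:78491582-78493025, GRCm38), which shares 1121 windows of 50 bases with Hdac1 transcripts, so reads can be divided between them. Gm10093 had 144 counts in replicate 1 and 1439 counts in replicate 2, or 3.16 and 15.0 TPM. It held 8.26% of their summed counts in replicate 1 and 17.5% in replicate 2. With both summed, a step chosen after seeing the data, the level was 38.1 TPM in replicate 1 and 84.9 TPM in replicate 2, and the mean log2 difference over Hdac2 was -0.06. The change of order between the libraries remained with the sum, since Hdac2 lay above it in replicate 1 and below it in replicate 2. The processed pseudogenes AC125456.1 and Gm4864 share 171 and 156 windows with Hdac1. Neither was among the genes the authors listed, so their counts are not known. In all, 169 genes shared at least 1 window with Hdac1, 3 of them 100 or more. Coding identity of Hdac1 and Hdac2 was 75.1% with a longest identical run of 17 bases, and no other gene shared a 50-base window with Hdac2.

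**Figure D3:**
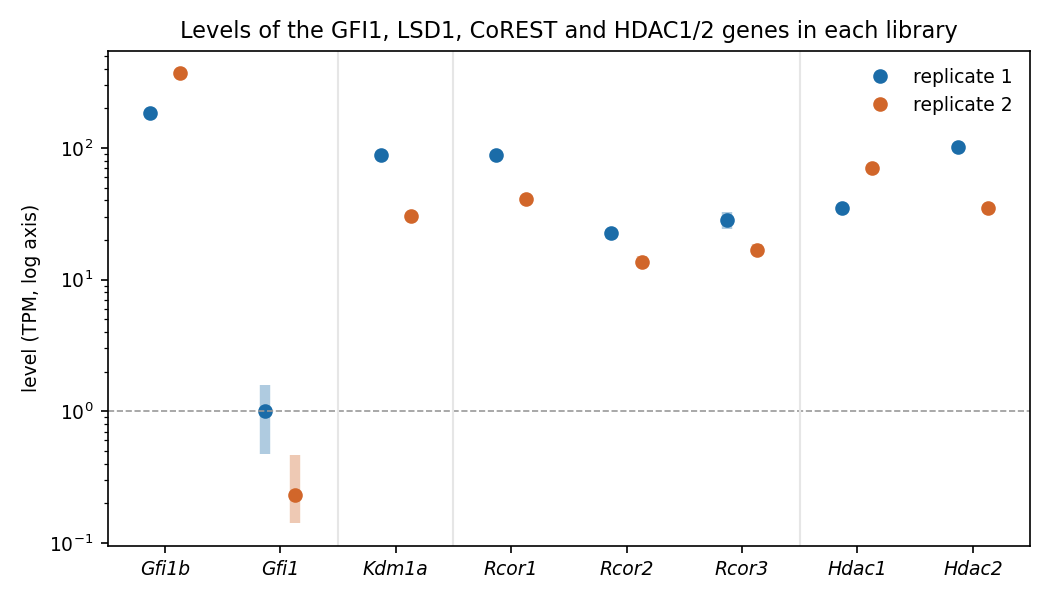
Level of each gene in TPM on a log axis, replicate 1 in blue and replicate 2 in orange, with shaded bars for the authors' intervals (mostly narrower than the points) and a dashed line at 1 TPM. The intervals surround posterior mean TPM, not the plotted TPM, so some plotted values, as for Gfi1b, lie just outside them. Gfi1b is the highest in both libraries, with 186 TPM in replicate 1 and 370 in replicate 2, and Gfi1 the lowest, while Hdac1 and Hdac2 change places.

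Ranked by level, replicate 1 had Gfi1b, Hdac2, Rcor1, Kdm1a, Hdac1, Rcor3, Rcor2 and Gfi1, and the authors' intervals overlapped for the neighbours Rcor1 and Kdm1a and for Rcor3 and Rcor2. Replicate 2 had Gfi1b, Hdac1, Rcor1, Hdac2, Kdm1a, Rcor3, Rcor2 and Gfi1, with no overlap between neighbours. Gfi1b at the top and Rcor3, Rcor2 and Gfi1 at the bottom held their places. The place of Rcor3 rests on a TPM of which models without coding sequence held 54.7% in replicate 1 and 17.6% in replicate 2. Of the 4 genes between them, Rcor1 kept its place, and Rcor1 and Hdac2 lay above Kdm1a in each library. Hdac1 lay below Hdac2, Rcor1 and Kdm1a in replicate 1 and above them in replicate 2. The ranges of these 4 genes over the 2 libraries overlap, as do those of Rcor3 and Rcor2. With n = 2 the orders that were kept are a description only.

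The 2 libraries were then compared gene by gene. Counts were divided by library sizes scaled with edgeR's TMM factors, and a two-sided exact conditional binomial test with Benjamini-Hochberg adjustment over 10635 genes asked whether they differed beyond counting noise. Of the 8 genes 7 did, 5 higher in replicate 1 and 2 higher in replicate 2, beside 80.7% of all tested genes. A share that high in the background means that the count says nothing particular about these genes. Those higher in replicate 1 were Kdm1a (2.32-fold), Hdac2 (2.26-fold), Gfi1 (1.91-fold), Rcor1 (1.68-fold) and Rcor2 (1.26-fold), and for all genes 37.4% were higher there. Those higher in replicate 2 were Hdac1 (2.57-fold) and Gfi1b (2.53-fold), and for all genes 43.3% were higher there. The adjusted p of the exact test was 7.70e-09 for Rcor2 and 0.0373 for Gfi1, and that of Gfi1 missed 0.05 when no low counts were filtered out. Rcor3 had 702 counts in replicate 1 and 1222 in replicate 2, 1.06-fold higher in replicate 2 with an adjusted p of 0.292 in the exact test, although its TPM was higher in replicate 1. Its log2 ratio was -0.08 with TMM and 0.09 with total counts, so the sign depends on the scaling. This p measures counting noise only, and with 2 libraries no test over replicates is possible.

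A difference of at least 2-fold was reached by 4 of the 8 genes, Kdm1a and Hdac2 in replicate 1 and Gfi1b and Hdac1 in replicate 2. Among all tested genes 26.5% did so, 7.21% towards replicate 1 and 19.3% towards replicate 2. The median log2 ratio of replicate 1 over replicate 2 was 0.54 over the 8 genes and -0.06 over all genes, and scaling by total counts moved the median of all genes to 0.11 and the share of calls higher in replicate 1 to 55.3%, against 46.4% with TMM. The same ratio on TPM had a median of 0.22 over all tested genes. Gata1, whose reads include those of the fusion, had 190 TPM in replicate 1 and 799 TPM in replicate 2, 5.33-fold higher in replicate 2 in scaled counts. Gata1, the globins and depth moved with the library difference, and their part in the differences of the 8 genes was not tested.

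**Figure D4:**
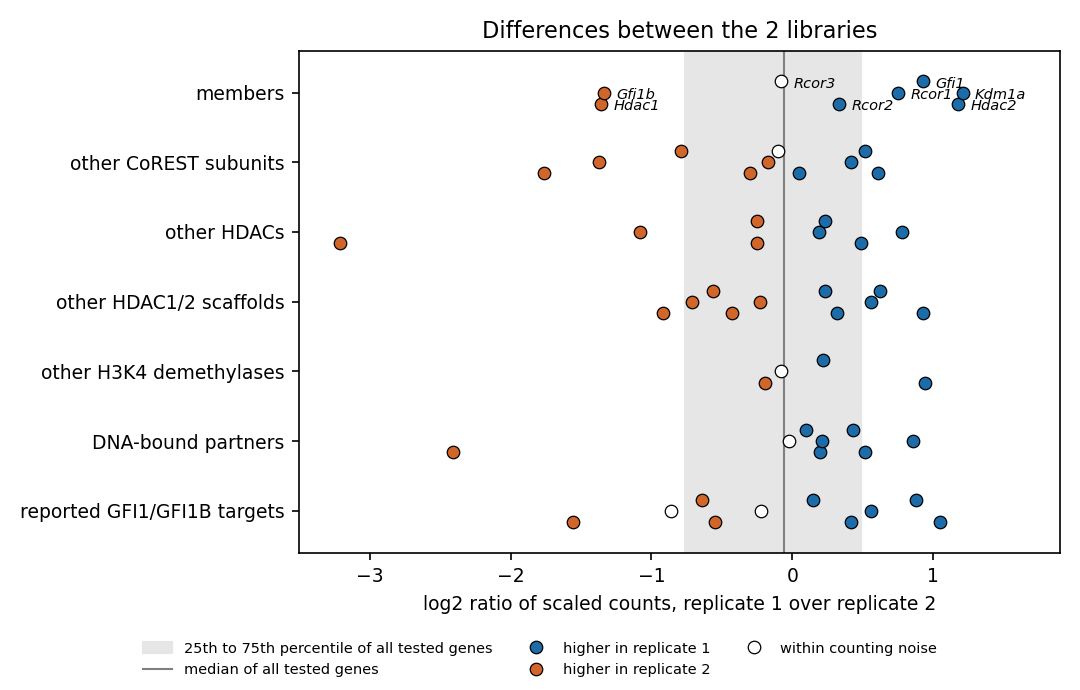
Log2 ratio of scaled counts, replicate 1 over replicate 2, for the tested genes of each list; the band spans the 25th to 75th percentiles of all tested genes and the line their median, -0.06. Points left of 0 are higher in replicate 2 and open points are within counting noise; Gfi1b and Hdac1 lie left of the band and Kdm1a, Hdac2, Gfi1 and Rcor1 right of it.

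Other subunits and partners of LSD1-CoREST were present. Of 11 listed partners 9 reached 1 TPM in both libraries. The highest were Ctbp1, a corepressor, with 451 TPM in replicate 1 and 264 TPM in replicate 2, Hmg20b, an HMG-box subunit also called BRAF35, with 284 and 160 TPM, and the zinc-finger factor Rreb1 with 97.4 and 71.5 TPM. Zfp516, another zinc-finger protein, was the lowest, with 0.0300 TPM in replicate 1 and 0 in replicate 2. In scaled counts, of 10 tested partners 4 were higher in replicate 1, 5 in replicate 2 and 1 within noise. Their median log2 ratio was -0.14 beside -0.06 for all genes. Rreb1 was higher in replicate 2 on that scale, although its TPM was higher in replicate 1.

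Genes whose products also carry a SNAG domain were close to absent. Of 9 listed, 0 reached 1 TPM in both libraries and 6 had no count in either library. Snai1, a repressor of epithelial genes, had 0.270 TPM in replicate 1 and 0 in replicate 2, and Scrt1, a neuronal repressor, had 0.13 and 0.10 TPM. Snai3 had 0 TPM in replicate 1 and 0.0100 TPM in replicate 2. Gfi1b was thus the only abundant gene among the listed SNAG factors together with Gfi1.

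Alternative enzymes and scaffolds were also read. Of 9 other deacetylase genes 7 reached 1 TPM in both libraries. By mean level they were led by the class IIa genes Hdac7 with 335 TPM in replicate 1 and 167 TPM in replicate 2, Hdac4 with 31.0 and 25.1 TPM, and Hdac5 with 28.2 and 21.6 TPM. Hdac3 lay above Hdac4 and Hdac5 in replicate 1, with 33.6 TPM, and below them in replicate 2, with 15.4 TPM. Hdac9 was listed at 0 TPM in both. Of 8 tested, 4 were higher in replicate 1 and 4 in replicate 2 (median log2 ratio -0.03). Among the other demethylases of the same lysine, Kdm5c had 109 TPM in replicate 1 and 67.8 TPM in replicate 2. Kdm5b had 76.3 and 30.1 TPM, and Kdm5a had 24.9 and 24.8 TPM. Kdm5d, a gene on chromosome Y, had no count in either library, although the line is described as male. The reason was not tested. Of 4 tested, 2 were higher in replicate 1, 1 in replicate 2 and 1 was within noise (median log2 ratio 0.07). HDAC1/2 also serve the SIN3, NuRD, MIER and MiDAC complexes. The 3 highest of their scaffolds by mean level were Mta1, Dnttip1 and Rere: Mta1, of NuRD, had 328 TPM in replicate 1 and 310 TPM in replicate 2, Dnttip1, of MiDAC, had 376 and 160 TPM, and the atrophin Rere had 256 and 266 TPM. Trerf1 was the lowest of these 12, at 0.0100 and 0.0200 TPM, and 10 reached 1 TPM in both. Of 10 tested scaffolds 5 were higher in replicate 1 and 5 in replicate 2 (median log2 ratio 0.00). Beside these lists, 37.4% of all tested genes were higher in replicate 1 and 43.3% in replicate 2. All these calls and ratios use scaled counts, not TPM. On that scale Hdac4, Hdac5, Kdm5c and Mta1 were higher in replicate 2, although their TPM was higher in replicate 1.

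Factors that bring the complex to DNA or work beside it in erythroid cells were all expressed, 8 of 8 at 1 TPM in both libraries. Zfpm1, the GATA1 cofactor FOG1, had 2427 TPM in replicate 1 and 1438 TPM in replicate 2, and Ldb1, a bridging factor of GATA1 complexes, had 484 and 395 TPM. With Gata1 they were the 3 highest by mean level, although in replicate 1 Gata2, with 374 TPM, lay above Gata1, with 190 TPM, whose reads include the fusion. Rest, which recruits CoREST to neuronal genes, was the lowest, with 10.3 TPM in replicate 1 and 6.94 TPM in replicate 2. Of the 8, in scaled counts, 6 were higher in replicate 1, 1 in replicate 2 and 1, Ldb1, was within noise (median log2 ratio 0.21). Over all tested genes 80.7% lay beyond counting noise, 37.4% higher in replicate 1 and 43.3% in replicate 2. Beside that share the count for so few genes is only a description.

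Genes reported as GFI1 or GFI1B targets in other blood cells held a wide range of levels, with 8 of 15 at 1 TPM in both libraries. Myc, a proliferation factor, had 324 TPM in replicate 1 and 467 TPM in replicate 2, the cell cycle inhibitor Cdkn1a had 85.2 and 53.1 TPM, and the progenitor factor Myb had 69.7 and 37.3 TPM. Csf1 and its receptor Csf1r were the lowest, each with 1 count in all. In scaled counts, of 10 tested, 5 were higher in replicate 1, 3 in replicate 2 and 2 within noise (median log2 ratio -0.04). Beside them, 37.4% and 43.3% of all tested genes were higher in replicates 1 and 2. These levels are a description, and no library lacking either repressor was analysed here.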

How the data were processed

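Polyadenylated RNA was measured in 2 libraries of 1 group. Per the accompanying text, the authors used assembly mm10 and annotation M4 from transcriptome alignments. Aligner, quantifier and strand setting were not given in the sources used here. The deposited expected counts are unnormalised estimates. The deposited TPM and FPKM values are scaled to effective length and library size by the authors, per the file headers. The deposited percent of a gene's TPM per transcript was used as given. The authors' interval bounds around posterior mean TPM (a signal unit here) have no stated level. The deposited tables hold 43346 mouse genes, of which 42462 matched a symbol, and 26345 other entries, with 1 count in replicate 1 and 0 in replicate 2, were left out.

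Expected counts were rounded for tests. Since 1 library on each side leaves edgeR's quasi-likelihood test no residual degrees of freedom, genes with a summed count of at least 20 entered an exact conditional binomial test, two-sided, with TMM-scaled library sizes (edgeR 4.0.16, scipy 1.17.1), adjusted by Benjamini-Hochberg at 0.05, with a prior count of 2 in ratios. It compares libraries, not conditions, was tested on simulated data, and with count floors covers counting error only. Models were those of GENCODE M21 on GRCm38, and promoters those of RefSeq on GRCm38.p6, so boundaries may differ from those counted; 48 of 49 transcripts had an M21 model and 47 the same length. Named were all 8 genes, transcripts with at least 10% of TPM or leading in a library, and of each other list the 3 highest and the lowest by mean TPM. Members and lists were chosen with earlier results of these data known.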

Additional observations from a re-analysis of the deposited data

How the results depend on the processing

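No paired analysis was possible because the study holds 1 group of 2 libraries. Under other scalings, filters, units or thresholds, 30 values of a count of genes or a ratio of a gene pair were recomputed, and 29 stayed near the reported value. For a ratio, near meant the same sign and a distance under its SD over the 2 libraries, and for a count a limited relative change. With an SD of 1.75 for Hdac1 over Hdac2 and 1.20 for Gfi1b over Gfi1, this limit is wide. Few values could leave it, so the 29 are weak evidence of stability. Gfi1b over Gfi1 kept its direction but grew to a mean log2 difference of 8.76 with a pseudocount of 0.1 TPM. Leaving out each replicate gave ranges of 6.54 to 8.24 for Gfi1b over Gfi1, 1.55 to 1.94 for Rcor1 over Rcor2, 1.24 to 1.62 for Rcor1 over Rcor3 and 3.04 to 4.38 for Kdm1a over Kdm1b. Hdac1 over Hdac2 ran from -1.50 to 0.97 and reversed its sign without replicate 1. The number of genes at 1 TPM ran from 7 to 8. The log2 ratio of Rcor3 between libraries, -0.08, turned to 0.09 with total counts. Without a filter on low counts 6 genes passed, since Gfi1 at 0.93 no longer did; more genes were then tested. By expected counts Rcor1-201 held 81.3% in place of 66.9%. The cause of the difference between the libraries was not tested, and the low counts of Gfi1, 21 in replicate 1 and 17 in replicate 2, limit every value given for it.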
